A study of Ovis aries with 30 samples.

Results

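Glycolysis, glycogen and pentose phosphate genes were followed in lamb liver as a list of 36 genes. The list was set by name, all 36 were present among the 31304 gene rows of the count table, and 35 were expressed enough to be tested. GCKR was the member that was not. Each sample was RNA from frozen liver of 1 of 30 lambs, whose mothers either had or had not been exposed to biosolids before conception and through pregnancy. Biosolids are treated sewage sludge, spread on pasture as fertiliser, that carry many chemicals at low levels. The 4 groups were 8 control females, 8 biosolids females, 7 control males and 7 biosolids males. The labels give neither the age of the lambs nor their breed, litter, feeding state at sampling or any batch. Each library is named by the lamb's tag number.

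These genes move glucose between blood, glycogen, lactate and the sugar phosphates that supply NADPH and ribose. In most mammals the liver takes up glucose after a meal and releases it during a fast. Adult ruminants absorb little glucose from the gut, because rumen microbes ferment most carbohydrate. Their liver makes glucose steadily from propionate, lactate and amino acids. The age and feeding state of these lambs are not labelled, so how far this applies to them is not known. Glycogen is built and broken down in the same cell by glycogen synthase and glycogen phosphorylase, which are switched in opposite directions by phosphorylation.

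Libraries held from 18.7 to 51.9 M counts. In the library of biosolids male 8778, 87.5% of counts fell on ribosomal RNA rows, against 0.299 to 7.69% in the other 29, which left 2.34 M counts for other genes. Values are given as CPM, counts per M of library size, with library sizes scaled by TMM, a method that lines up the bulk of genes between libraries. For comparisons between genes they were divided by exon length and are given as CPM per kilobase. Control female 8263 was the library least like the others over all tested genes (median Spearman correlation 0.943), followed by lamb 8778 (0.947). Control male 8408 was unlike the other males in LOC101112291, an X-linked non-coding transcript. It held 302 CPM there, where the 13 other males did not exceed 2.05 CPM and females ranged from 318 to 824 CPM. Whether the sex label of lamb 8408 is right was not tested, and the lamb was kept as labelled. Where a named difference moved much without 1 of these libraries, it is given both ways. The hepatocyte markers summed to between 63071 and 125316 CPM per lamb, with none of the 9 used at 0. In whole tissue, fewer cells of a type and less RNA per cell cannot be told apart.

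LDHB, the heart-type lactate dehydrogenase subunit (chromosome 3, 194115853 to 194134183 in assembly ARS-UI_Ramb_v3.0), had the highest median of the members, at 190.0 CPM per kilobase. ENO1, the enolase, followed at 169 CPM per kilobase, TPI1, triosephosphate isomerase, at 138, and GAPDH, the NADH-forming dehydrogenase, at 134. LDHB lay above ENO1 in 21 of 30 lambs and TPI1 above GAPDH in 17 of 30, so these neighbours overlapped. TALDO1, the transaldolase of the pentose phosphate pathway, stood at 113 CPM per kilobase and PYGL, the liver glycogen phosphorylase, at 109. TPI1, GAPDH, ENO1, LDHA and other old glycolytic genes have processed copies in mammalian genomes. The sources used here do not say how reads that match several copies were counted, and their levels are uncertain to that extent.

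Entry of glucose was marked by an abundant transporter and scarce hexokinases. SLC2A2, the low-affinity glucose transporter of hepatocytes, had a median of 61.6 CPM per kilobase, and SLC2A1, the transporter of most other cells, 1.51. Of the hexokinases, which trap glucose as glucose 6-phosphate, HK3 had a median of 3.26, HK1 of 2.83 and HK2 of 0.173 CPM per kilobase. HK3 lay above HK1 in 24 of 30 lambs, and both lay above HK2 in all 30. KHK, the fructokinase, stood at 29.5 CPM per kilobase. GCKR, the protein that holds glucokinase in the nucleus of hepatocytes in other mammals (chromosome 3, 34531206 to 34557427), had 0 counts in 17 lambs and between 1 and 7 counts in the other 13. Its highest level was 0.169 CPM, in biosolids female 8647. A count of 0 allows up to 3 counts, which is 0.0605 to 0.0993 CPM in 16 of these lambs and 1.06 CPM in biosolids male 8778 (counting error only).

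Glycogen genes were spread over a wide range of levels. After PYGL came PGM1, phosphoglucomutase, with a median of 46.4 CPM per kilobase, then GYS2, the liver glycogen synthase, with 38.9. UGP2, which makes the UDP-glucose that synthase uses, stood at 17.2 and GBE1, the branching enzyme, at 12.1 CPM per kilobase. PPP1R3B and PPP1R3C, subunits that bring protein phosphatase to glycogen, had medians of 21.3 and 15.6, and PHKA2, the liver regulatory subunit of phosphorylase kinase, 7.52 CPM per kilobase. PGD, which forms NADPH in the pentose phosphate pathway, stood at 33.3 and TKT, transketolase, at 9.79 CPM per kilobase.

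**Figure D1:**
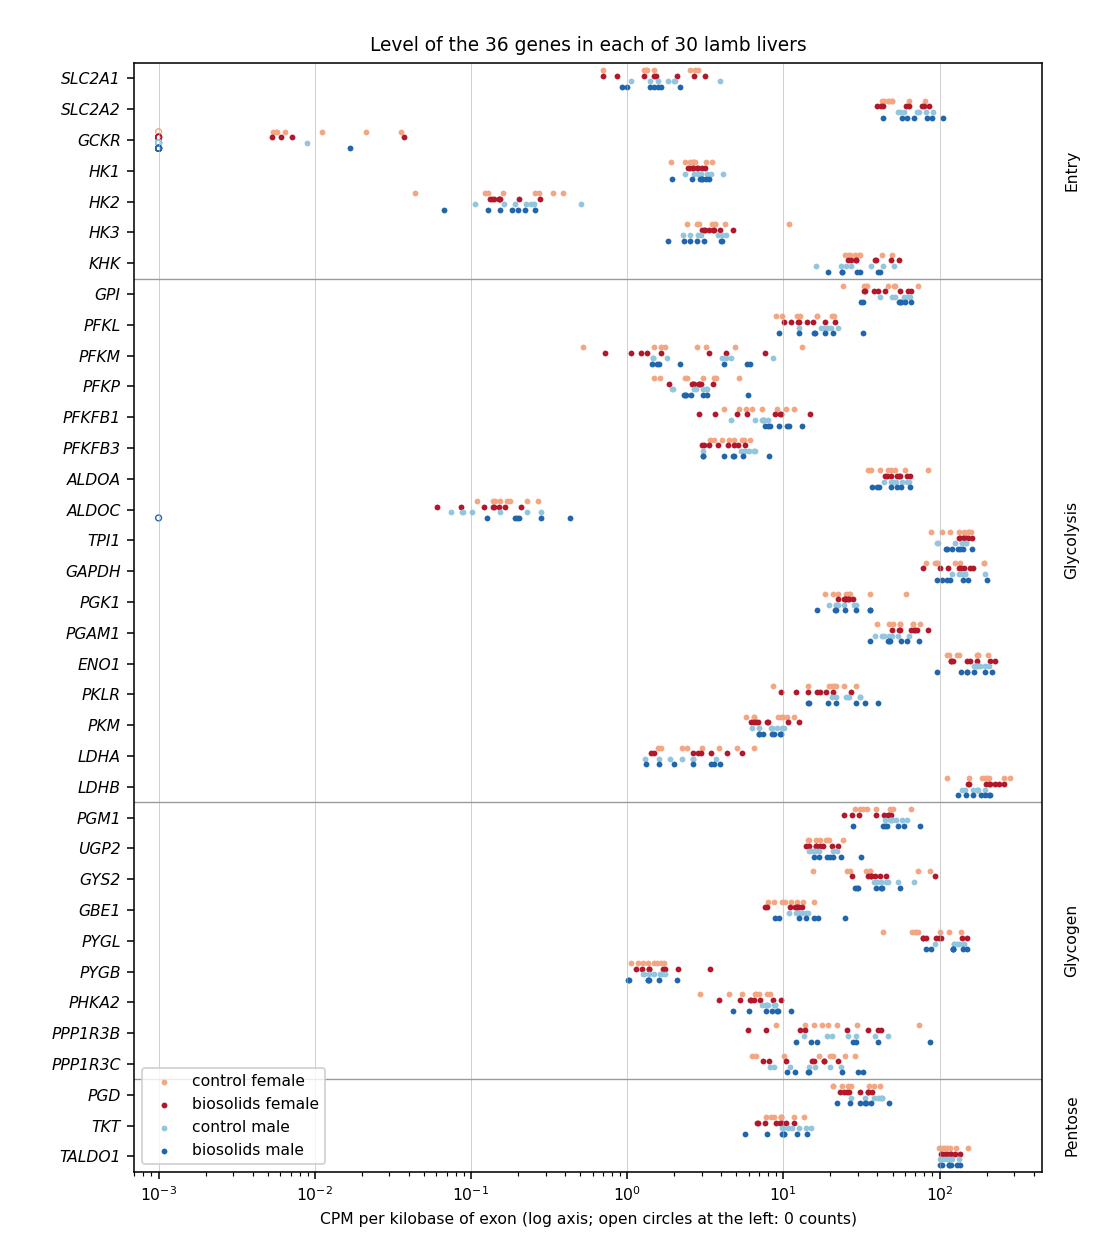
Level of each of the 36 genes (rows, grouped by step) as CPM per kilobase of exon on a log axis, 1 point per lamb, coloured by group, with 0 counts drawn as open circles at the left. LDHB, ENO1, TPI1 and GAPDH sit highest, GCKR sits lowest with 17 lambs at 0 counts, and the 4 groups overlap in every row.

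Where a step has several isozymes, 1 of them usually held most of the RNA per length. LDHB made up 98.4 ± 0.953% of LDHA and LDHB together (SD, n = 30), with the lowest share, 94.5%, in control female 8263. LDHA encodes the muscle-type subunit, so the dominant subunit here was the heart type. SLC2A2 made up 97.3 ± 1.05% of the transporter pair and PYGL 98.5 ± 0.736% of PYGL and PYGB, the brain-type phosphorylase. In the pair of ALDOA, the muscle-type aldolase, and ALDOC, the brain-type aldolase, ALDOA held 99.7 ± 0.171%. The liver aldolase is not part of this list. These shares lay far from an even split in all 30 lambs.

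Other steps were mixed. PKLR, the pyruvate kinase of liver and red cells, made up 70.8 ± 7.69% of PKLR and PKM (SD, n = 30) and exceeded PKM in 29 of 30 lambs. The exception was biosolids female 8649, at 49.0%. PFKL, the liver phosphofructokinase, held 72.7 ± 7.39% of the 3 phosphofructokinases, with PFKM, the muscle type, at 13.7 ± 8.11% and PFKP, the platelet type, at 13.6 ± 5.38%. PFKFB1, the liver form of the enzyme that makes and breaks fructose 2,6-bisphosphate, made up 61.2 ± 10.2% of its pair with PFKFB3, the inducible form, and lay above it in 26 lambs. PPP1R3B held 59.3 ± 15.0% of its pair with PPP1R3C and lay above it in 20 lambs, so that the order of these scaffolds differed from lamb to lamb.

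Lambs of 1 group differed from each other by very different amounts depending on the gene. The pooled SD of log2 CPM within groups had a median of 0.38 over the 35 tested members, beside 0.42 over all 17840 genes tested and 0.36 over the 14344 genes with a mean of at least 1 CPM. TALDO1 varied least, with an SD of 0.16 and 120.2 to 185 CPM over all lambs. TPI1 and HK1 followed, each at 0.23. At the other end stood PFKM at 1.13, PPP1R3B at 0.92, ALDOC at 0.70, PPP1R3C at 0.68 and HK2 at 0.67. ALDOC had at most 22 counts in a library and HK2 at most 88, and the SD of ALDOC was 0.47 without biosolids male 8778. PFKM and PPP1R3B were well counted, with at least 24 and 404 counts in each library.

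PFKM (chromosome 3, 138448501 to 138492662) ranged from 2.86 CPM in control female 8263 to 72.7 CPM in control female 8245, a 25.5-fold span within 1 group. The lowest, median and highest values were 2.86, 12.4 and 72.7 CPM in control females and 4.0, 8.22 and 41.9 CPM in biosolids females. In control males they were 8.01, 22.4 and 47.1 CPM, and in biosolids males 7.96, 12 and 33.7 CPM. High and low lambs thus occurred in all 4 groups, which overlapped widely. Of the 4 skeletal muscle markers used, MYH1 was at 0 counts in every lamb, CKM did not exceed 0.104 CPM, ACTA1 0.449 CPM and TNNT3 0.778 CPM. Their summed level was 0.881 CPM at most, in control female 8353, a lamb with 9.02 CPM of PFKM. Whether muscle RNA had a part in the PFKM values was not tested.

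PPP1R3B (chromosome 26, 24323792 to 24335286) spanned 14.8-fold over all lambs, from 30.2 CPM in biosolids female 8649 to 446 CPM in biosolids male 8762. The lowest, median and highest were 46.0, 94.9 and 377 CPM in control females, 30.2, 100.8 and 216 CPM in biosolids females, 69.5, 133 and 239 CPM in control males, and 61.2, 143 and 446 CPM in biosolids males. Control female 8269, at 377 CPM, and biosolids male 8762 stood above all other lambs, of which the next was control male 8428 at 239 CPM. GYS2 (chromosome 3, 194179177 to 194237178, close to LDHB) ranged from 52.8 CPM in control female 8263 to 322 CPM in biosolids female 8775.

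Some lambs stood apart across the list. Biosolids male 8770 had the highest value of all lambs for 8 of the 35 members, among them PKLR at 91.6 CPM, PFKL at 92.2 CPM, GBE1 at 105 CPM and UGP2 at 122 CPM, and it lay above its group mean for 29. Among all genes tested, it was highest for 3.55%. Control female 8263 was lowest for 8 members, where it was lowest for 8.53% of all genes, and highest for 3, HK3, PGK1 and LDHA, where it was highest for 11.5% of all genes. It held 107 CPM of PGK1, phosphoglycerate kinase, while the other lambs lay between 28.9 and 62.8 CPM. Biosolids male 8735 lay below its group mean for 28 of the 35, with a median deviation of -0.33 log2 units, beside 0.04 over all genes.

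**Figure D2:**
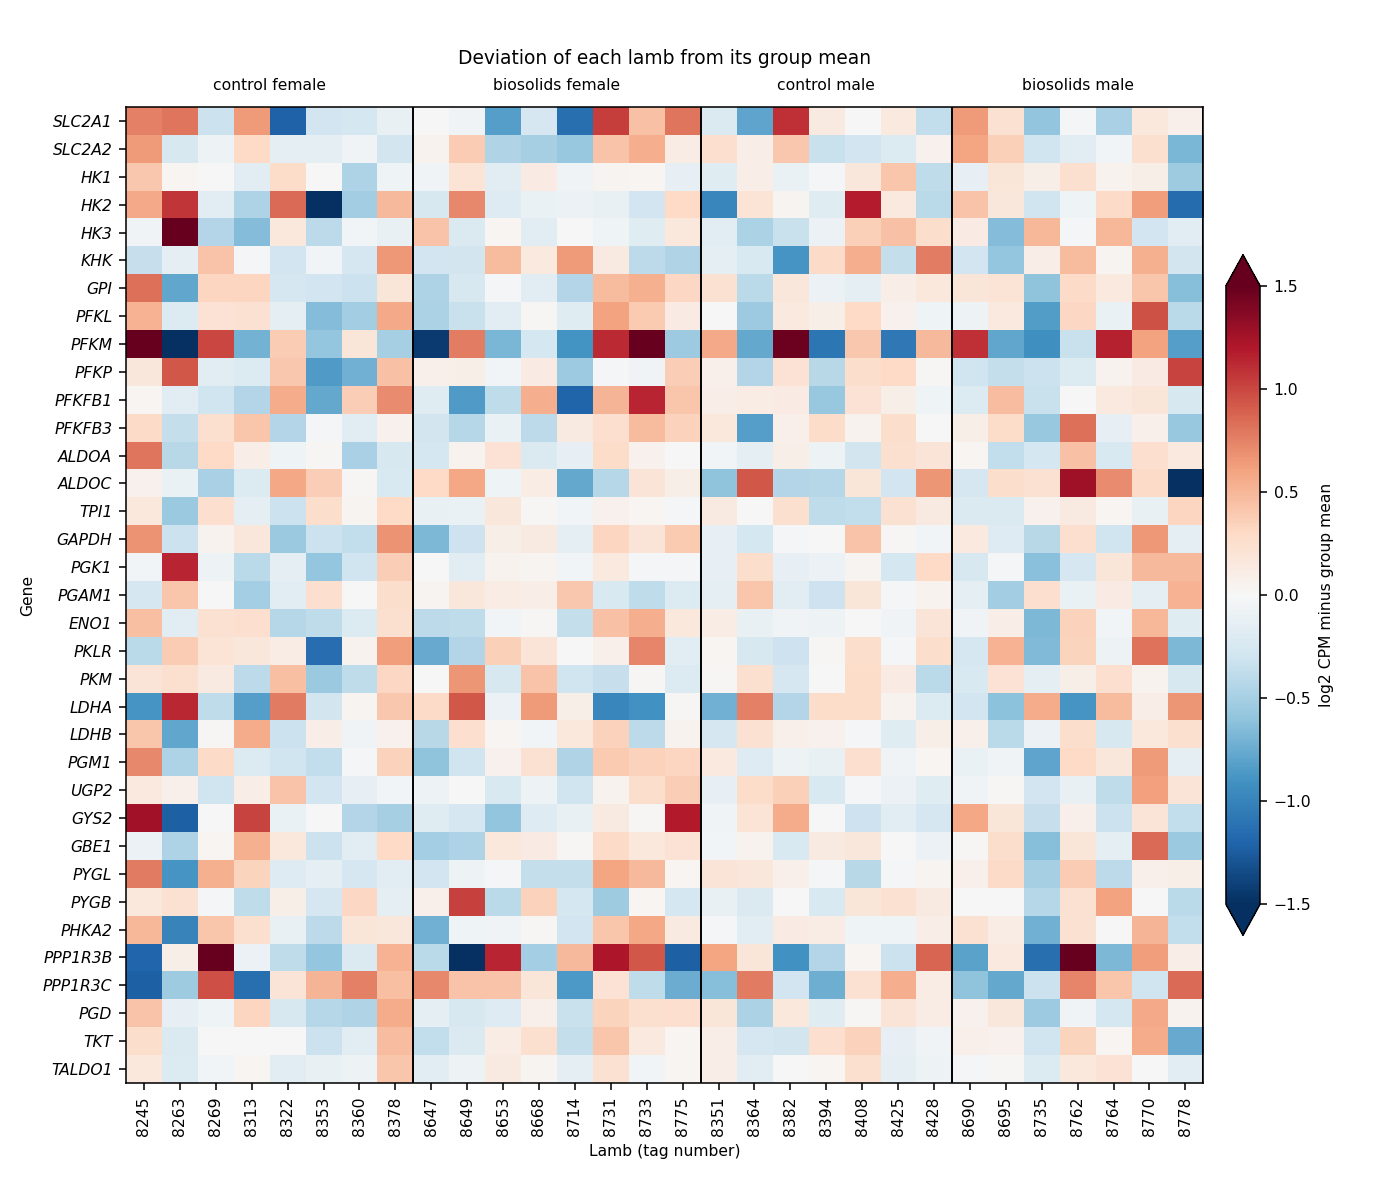
Log2 CPM of the 35 tested genes (rows) in each lamb (columns, by tag number and group) minus the mean of the lamb's own group, with red above and blue below, and the colour scale ending at 1.5 log2 units on both sides. The rows of PFKM, PPP1R3B and HK2 hold deep red and deep blue cells while that of TALDO1 is pale, and biosolids male 8770 is mostly red while biosolids male 8735 is mostly blue.

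The first comparison asked whether maternal exposure went with another level of these genes in female lambs. None of the 35 members passed, and fitted log2 fold changes lay between -0.47 and 0.32 with a median of -0.01, beside -0.02 over all genes. PYGB had the smallest p, averaging 6.67 ± 2.76 CPM in the biosolids group and 5.34 ± 0.888 CPM in the control group (SD, n = 8 each). Its lowest, median and highest values were 4.32, 5.82 and 12.8 CPM in biosolids and 4.03, 5.38 and 6.57 CPM in control females. The log2 fold change was 0.32 ± 0.18 (SE), and the value of 12.8 CPM belonged to lamb 8649 alone. Without that lamb it was 0.12. The duct markers of that lamb summed to 104 CPM, where the group median was 11.7 CPM, and their part in the value was not tested.

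PYGL (chromosome 7, 41975998 to 42027750) ran from 248 through a median of 307 to 477 CPM in biosolids females and from 137 through 228 to 434 CPM in control females. The groups overlapped and the log2 fold change was 0.29 ± 0.19 (SE), or 0.19 without control female 8263. PGAM1, phosphoglycerate mutase, stood at 111 ± 19.5 CPM in biosolids and 98.2 ± 20.3 CPM in control females. On the lower side the smallest p belonged to PGK1, at 44.1 ± 2.79 against 51.8 ± 23.9 CPM, whose log2 fold change of -0.23 became 0.01 without control female 8263. ALDOC and HK2 came next at -0.38 ± 0.33 and -0.35 ± 0.32, both at no more than 2.07 CPM in any female.

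With p-values from edgeR's quasi-likelihood test, adjusted by Benjamini-Hochberg over 17840 genes, 0 genes were called in females (0%), and the smallest adjusted p among the members was 1. At an unadjusted p under 0.05 there were 0 members, beside 3.65% of all genes. DESeq2 and limma voom with sample weights also called 0 members. The 95% interval of the log2 fold change lay within 1 unit on either side of no change for 31 of 35 members, and within 0.5 units for 16. The 4 whose intervals reached past 1 unit were HK2, PFKM, ALDOC and PPP1R3B. No member separated the female groups without overlap, nor did any other gene (0%).

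In males the same comparison put UGP2 (chromosome 3, 44380055 to 44436612) and PFKFB1 (chromosome X, 52901461 to 53037483) first on the higher side, and TKT, SLC2A1 and PGD on the lower side. None of the 35 passed. UGP2 had a lowest, median and highest value of 60.8, 76.5 and 122 CPM in biosolids males and 56.6, 62.3 and 85.0 CPM in control males, a log2 fold change of 0.28 ± 0.14 (SE). The groups overlapped, and without biosolids male 8770, which held 122 CPM, the difference was 0.16.

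PFKFB1 ran from 16.7 through 20.9 to 29.0 CPM in biosolids males and from 10.2 through 16.3 to 17.6 CPM in control males. These groups overlapped only between 16.7 and 17.6 CPM, and the log2 fold change was 0.48 ± 0.26 (SE; 95% interval -0.06 to 1.02). Without lamb 8778 it was 0.51, and without control male 8408 0.52. Over all alternatives it ran from 0.39 to 0.55. In females PFKFB1 stood at 16.7 ± 8.66 CPM in biosolids and 16.6 ± 5.86 CPM in control lambs (SD, n = 8 each). ALDOC, at 0.63 ± 0.35, rested on at most 0.688 CPM in any male.

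TKT ran from 12.1 through 21.2 to 29.8 CPM in biosolids males and from 20.6 through 24.0 to 31.7 CPM in control males, with a log2 fold change of -0.24 ± 0.16 (SE). The lowest of these, 12.1 CPM, came from lamb 8778. Without that library the value was -0.16. PGD averaged 68.3 ± 16.7 against 78.6 ± 12.3 CPM and SLC2A1 12.5 ± 3.64 against 16.9 ± 7.91 CPM in biosolids and control males (SD, n = 7 each). SLC2A1 was at -0.43 ± 0.32 (SE), and at -0.18 without control male 8382, which held 33.6 CPM.

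In males edgeR's quasi-likelihood test called 0 genes (0%), and the smallest adjusted p among the members was 0.816 with Benjamini-Hochberg adjustment. No member had an unadjusted p under 0.05 by edgeR, beside 5.44% of all genes. By limma voom with sample weights 3 of 35 members did, beside 1469 of all 17840 genes. Neither DESeq2 nor limma voom called a member. Median log2 fold change was -0.05 over the members and 0.01 over all genes. The 95% interval lay within 1 log2 unit for 28 members and within 0.5 for 12. Without overlap between the male groups there were 0 members, beside 0.0561% of all genes.

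**Figure D3:**
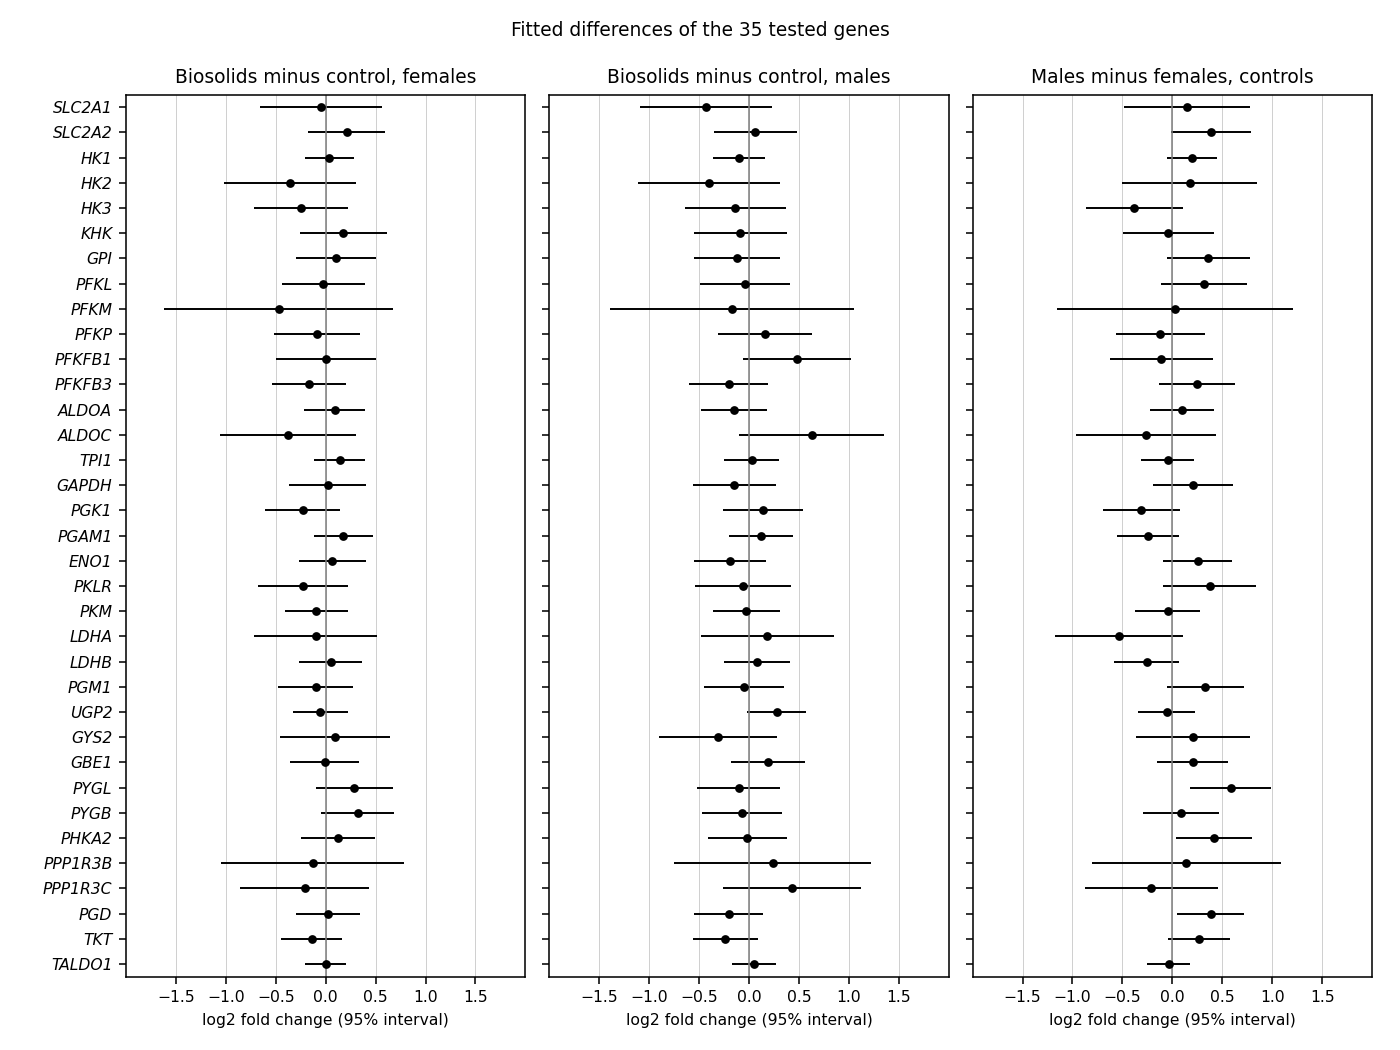
Log2 fold change of the 35 tested genes (rows) with its 95% interval, for biosolids minus control in females (left), biosolids minus control in males (middle) and males minus females in controls (right). Every interval of the 2 exposure panels spans 0, and in the right panel those of PYGL, PHKA2 and PGD do not.

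Over both sexes the members' log2 fold changes lay between -0.38 and 0.25, the medians being -0.01 over the members and 0.00 over all genes. TKT had the smallest p, at -0.19 ± 0.11 (SE), with lower biosolids means in both sexes: 18.9 ± 3.72 against 20.9 ± 3.95 CPM in females, and 21.1 ± 5.77 against 25.1 ± 4.27 CPM in males. HK2, PFKFB3, PGAM1, PFKFB1 and UGP2 were the next by p on either side. HK2, at -0.38 ± 0.24, was at -0.23 without control male 8408. PFKFB3 averaged 18.4 ± 4.41 against 20.7 ± 4.32 CPM in females and 21.1 ± 7.61 against 24.5 ± 5.27 CPM in males. No gene was called by edgeR (0%; smallest adjusted p among the members 0.943), and 0 members had an unadjusted p under 0.05, beside 4.3% of all genes. DESeq2 and limma voom called 0 members. Intervals were narrowest here: 34 members stayed within 1 log2 unit and 26 within 0.5, PFKM being the one that did not stay within 1.

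The interaction asked whether the effect in males differed from that in females. No member passed by edgeR (smallest adjusted p 0.951; 0% of genes called), DESeq2 or limma voom. ALDOC alone had an unadjusted p under 0.05, beside 3.63% of all genes, with a term of 1.0 ± 0.49 log2 units (SE) on levels of at most 0.688 CPM. UGP2 came second at 0.33 ± 0.20, and PGK1 stood at 0.37 ± 0.27. Over the alternatives the PGK1 term ran from 0.14 to 0.46, so its size depended on the setting. On the lower side PYGB, PYGL and ALDOA stood at -0.39 ± 0.26, -0.39 ± 0.28 and -0.24 ± 0.22. The PYGB term ran from -0.51 to -0.18 over the alternatives. The 95% interval lay within 0.5 log2 units for 5 members, and for the other 30 it did not exclude a difference of that size between the sexes.

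**Figure D4:**
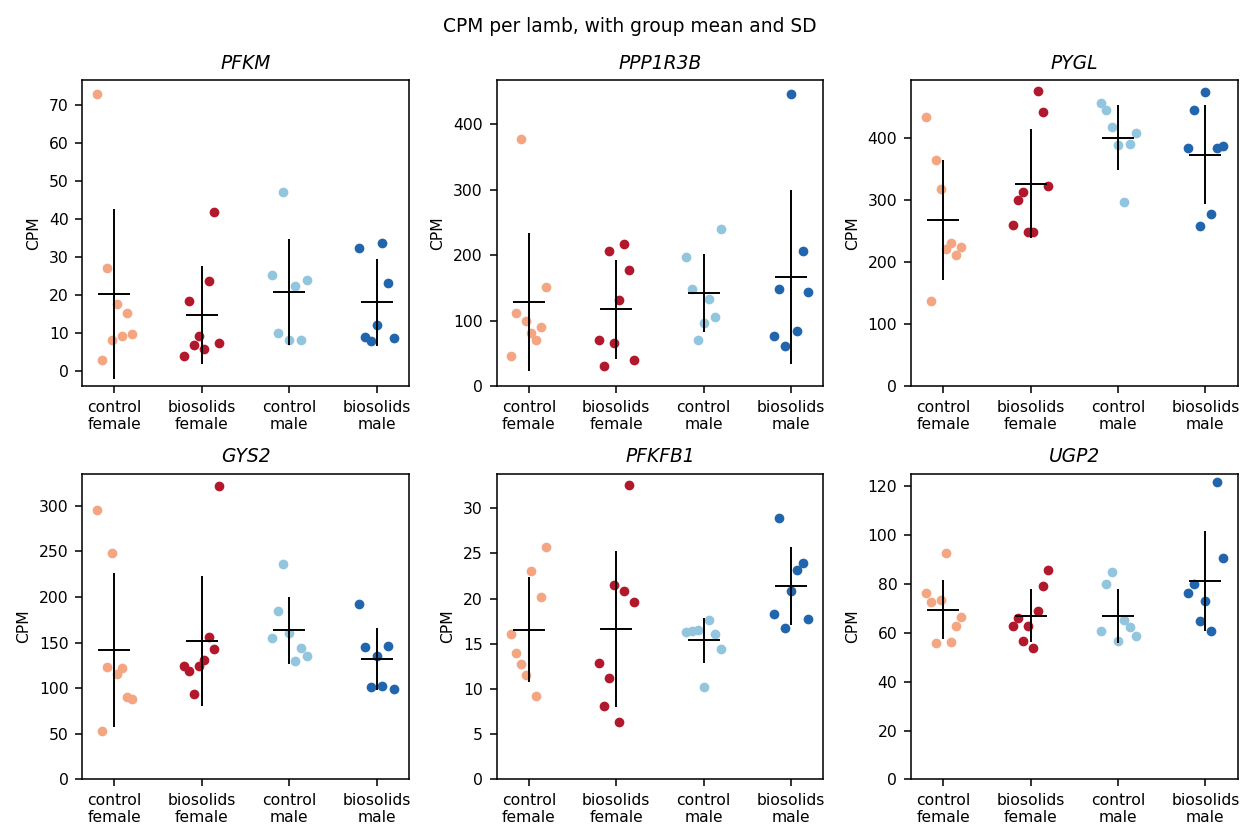
CPM per lamb (points) of PFKM, PPP1R3B, PYGL, GYS2, PFKFB1 and UGP2 in the 4 groups, with the group mean (horizontal line) and SD (vertical line). Groups overlap in all 6 panels. PFKFB1 in biosolids males lies between 16.7 and 29.0 CPM, beside 10.2 to 17.6 CPM in control males.

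Shares of isozymes were compared between groups as well, for 9 families in 4 contrasts. In males PFKFB1 held 67.4 ± 6.73% of the PFKFB1 and PFKFB3 pair in biosolids and 55.7 ± 8.78% in control lambs (SD, n = 7 each). By exact permutation, two-sided, p was 0.0192, and it missed the threshold once adjusted over 36 tests (adjusted p = 0.524). PKLR held 75.2 ± 4.20% of its pair in control males (n = 7) and 68.8 ± 6.76% in control females (n = 8; exact permutation p = 0.0542, adjusted p = 0.524). PYGL held 98.8 ± 0.302% against 98.1 ± 0.879% in the same groups (exact permutation p = 0.0645, adjusted p = 0.524). No share passed.

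Sex differences were examined within controls first. PYGL had the smallest p of all members, with a lowest, median and highest value of 298, 408 and 456 CPM in control males and 137, 228 and 434 CPM in control females. Its log2 fold change, males minus females, was 0.58 ± 0.20 (SE; 95% interval 0.18 to 0.98), and 6 of 7 males lay above 7 of 8 females. Leaving out control female 8263 gave 0.47, and leaving out control male 8408 gave 0.64. PGD stood at 78.6 ± 12.3 CPM in males (n = 7) and 60.3 ± 16.5 CPM in females (n = 8), and PHKA2 at 37.0 ± 2.86 against 27.8 ± 8.04 CPM. Their log2 fold changes were 0.38 ± 0.16 and 0.42 ± 0.19, the latter 0.30 without control female 8263. SLC2A2 followed at 0.39 ± 0.19. The lowest value of each of these 4 genes in controls belonged to a female, and the highest females reached into the male range.

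On the other side stood LDHA, PGK1 and LDHB. LDHA ran from 3.43 through 5.90 to 9.67 CPM in control males and from 4.17 through 7.17 to 17.0 CPM in control females. The difference was -0.53 ± 0.31 log2 units (SE), or -0.33 without control female 8263. PGK1 was at -0.31 ± 0.19, which was -0.08 without control female 8263, and LDHB at -0.26 ± 0.16. PFKFB1, PGK1 and PHKA2 are the 3 members on the X chromosome, and they did not share a direction: PFKFB1 stood at -0.11 ± 0.25, PGK1 lower and PHKA2 higher in control males.

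None of the 35 members passed for sex in controls by edgeR's quasi-likelihood test, where PYGL had an adjusted p of 0.206 and 0.0841% of all genes were called. PYGL, PGD and PHKA2 had an unadjusted p under 0.05, so 3 of 35 members beside 18.9% of all genes. DESeq2 and limma voom called 0 members, with an adjusted p for PYGL of 0.107 and 0.0605. Over all alternatives its adjusted p ran from 0.0605 to 0.364. The members' median was 0.14, beside -0.04 over all genes. The mean was higher in males for 21 of 35 members, beside 45.4% of all genes. Marker lists are given beside these values, without a test of the lists. The 8 stellate cell and fibroblast markers summed to 371 to 567.97 CPM in control males and 181 to 328 CPM in control females, with none at 0 throughout, and the 9 hepatocyte markers used to 94261 to 125316 against 65446 to 121999 CPM. In controls the stellate sums did not overlap between the sexes and the hepatocyte sums did. The myeloid, red cell, duct, endothelium, skeletal muscle and lymphocyte sums overlapped there too. Collagens weighed most in the stellate sum: medians over all lambs were 129 CPM for COL3A1 and 62.8 for COL1A1, beside 2.82 for LUM and 2.58 for FBLN1. In biosolids lambs the stellate sums overlapped, at 181 to 545 CPM in males and 197 to 613 CPM in females. The part of either list in the member values was not tested.

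In biosolids lambs males again had no member that passed against females (edgeR smallest adjusted p 0.969; 0.0953% of all genes called; 0 members by DESeq2 and limma voom). PKLR, GBE1 and ALDOC had an unadjusted p under 0.05, beside 4.85% of all genes. PKLR ran from 32.7 through 49.3 to 91.6 CPM in biosolids males and from 21.8 through 37.9 to 61.3 CPM in biosolids females, at 0.54 ± 0.23 log2 units (SE), or 0.37 without biosolids male 8770. GBE1 stood at 61.5 ± 22.9 against 46.6 ± 8.99 CPM, at 0.40 ± 0.17, and at 0.22 without biosolids male 8770. PGAM1, PYGB and LDHB had the smallest p on the lower side, at -0.30 ± 0.15, -0.30 ± 0.19 and -0.22 ± 0.16. Over the alternatives PYGB ran from -0.42 to -0.10. PYGL averaged 373 ± 80.0 CPM in biosolids males (n = 7) and 327 ± 87.5 CPM in biosolids females (n = 8). No member had values that did not overlap between the sexes, in controls (0.213% of all genes) or in biosolids lambs (0.0673%).

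How members moved together from lamb to lamb was examined in 13 relations, on log2 CPM after each group mean was taken away, with permutation within groups. By adjusted p, 7 of the 13 passed for r. Other pairs of members were not correlated, so whether these relations are closer than others was not tested. Many members shifted together in some lambs, such as biosolids male 8770, above its group mean for 29 of 35. PYGL and GYS2, the enzymes that break down and build glycogen, moved together over the 30 lambs, with a Pearson r of 0.65 and a Spearman rho of 0.68 (permutation p = 0.00157 and 0.00019, adjusted p = 0.0051 and 0.00247). Without control females 8245 and 8263, the lambs farthest out in PYGL, r was 0.44. Within groups r was 0.88 in control females, 0.23 in biosolids females, 0.52 in control males and 0.57 in biosolids males. Lamb 8263 was lowest and lamb 8245 second highest for GYS2.

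PGD was also related to the other pentose phosphate members, but it was not compared with members outside that pathway. PGD had an r of 0.58 and a rho of 0.58 with TKT (permutation p = 0.00196 and 0.00156, adjusted p = 0.0051 and 0.00507), and of 0.52 and 0.51 with TALDO1 (permutation p = 0.00793 and 0.00879, adjusted p = 0.0147 and 0.0163). Leaving out the biosolids males 8770 and 8735, r was 0.49 and 0.52. Without lamb 8778, which lay far below the others in TKT, r with TKT was 0.70. Within groups it was 0.87 and 0.78 in control and biosolids females, and 0.07 and 0.48 in control and biosolids males.

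LDHA went the other way from ALDOA, the muscle-type aldolase, with an r of -0.54 and a rho of -0.53 (permutation p = 0.00528 and 0.00588, adjusted p = 0.0114 and 0.0127). It was -0.46 without the 2 farthest lambs, 8731 and 8263, and negative within each of the 4 groups, between -0.73 and -0.27. LDHA and PGK1 had an r of 0.38 (rho 0.29; permutation p = 0.0598 and 0.135, adjusted p = 0.0863 and 0.195), which did not pass and ran from -0.65 to 0.68 between groups. PPP1R3B and PPP1R3C, HK2 and PFKFB3, and PKLR and GCKR did not pass either, with r of 0.29, -0.04 and -0.30 and adjusted permutation p of 0.186, 0.859 and 0.186. For GCKR the counts were too sparse to read.

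HK3, a hexokinase of white blood cells, followed the myeloid markers. The mean log2 CPM of the markers, 10 of 12 of which were tested, had an r of 0.78 and a rho of 0.64 with HK3 (permutation p = 0.00012 and 0.00065, adjusted p = 0.00156 and 0.00422), and r was 0.68 without control male 8394 and control female 8263. The relation was positive in all 4 groups, between 0.51 and 0.95. Control female 8263 had the highest HK3 of all lambs, 33.2 CPM, together with the highest level of 5 of the 12 markers, FCER1G, CYBB, SPI1, ITGAM and LYZ, at 88.2, 60.3, 49.8, 14.6 and 11.7 CPM. CD14, CSF1R, MARCO, TYROBP, S100A8 and S100A9 were each highest in another lamb, and control female 8245 had the highest summed level of its group. Summed, the myeloid markers lay at 336 to 554 CPM in control females, 329 to 550 in biosolids females, 484 to 673 in control males and 346 to 514 in biosolids males. CD68 was at 0 counts in every lamb. Whether other cells account for part of these values was not tested. PFKP had an r of 0.63 and a rho of 0.55 with these markers (permutation p = 0.00095 and 0.00492, adjusted p = 0.00412 and 0.0127; 0.49 without the same lambs). PKM had an r of 0.40 (rho 0.47; permutation p = 0.0443 and 0.0153, adjusted p = 0.0719 and 0.0249), so that the rank correlation passed and r did not.

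Red cell markers were nearly absent, at 1.48 to 7.25 CPM in sum, with HBB, the beta globin, at a median of 0.371 CPM. Their mean over the 4 tested had an r of -0.61 and a rho of -0.59 with SLC2A1 (permutation p = 0.00038 and 0.00153, adjusted p = 0.00247 and 0.00507; -0.58 without the 2 farthest lambs, 8245 and 8735) and of 0.04 with HK1 (rho 0.11; permutation p = 0.859 and 0.576, adjusted p = 0.859 and 0.624). These markers lie close to their counting limit.

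**Figure D5:**
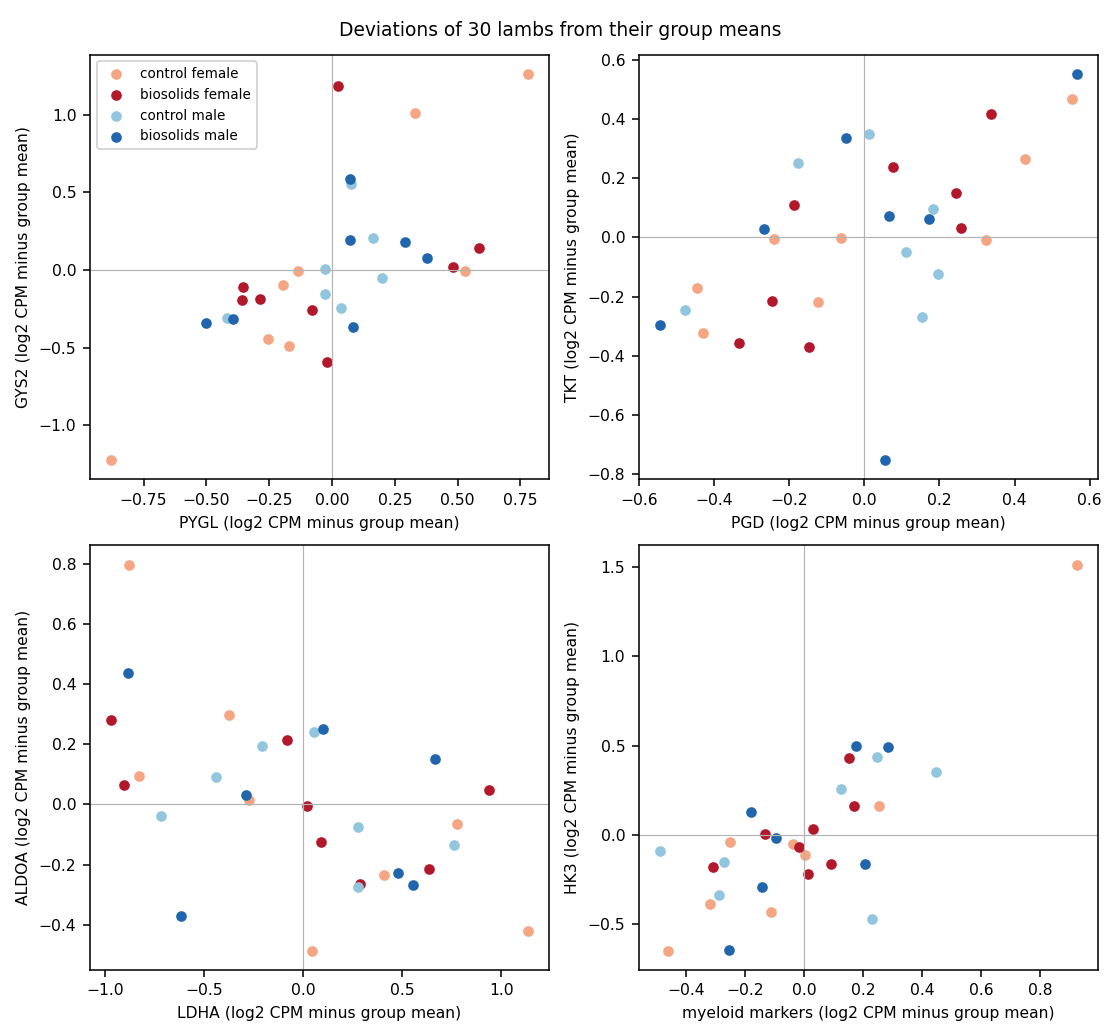
Deviations from the group mean in log2 CPM for PYGL and GYS2, PGD and TKT, LDHA and ALDOA, and the myeloid marker mean and HK3, 1 point per lamb, coloured by group. Pearson r is 0.65, 0.58, -0.54 and 0.78 over 30 lambs. Control female 8263 is the point at the upper right of the HK3 panel and at the lower left of the PYGL panel.

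Of 79 further genes of glucose handling, 77 were matched and 71 tested, and 0 passed in any of the 6 comparisons by edgeR. They cover other glycolytic and glycogen enzymes, the remaining pentose phosphate steps, glucose output, the pyruvate dehydrogenase complex and regulators. In females FBP2, the muscle fructose bisphosphatase, and PDK4, which switches off pyruvate dehydrogenase during fasting, had the smallest p. FBP2 had a median of 1.92 CPM in biosolids and 0.914 CPM in control females, with 23.6 CPM in biosolids female 8649 (log2 fold change 2.17 ± 0.67 SE, adjusted p = 0.95). Without that lamb the log2 fold change of FBP2 was 0.91. PDK4 stood at 226 ± 64.9 against 167 ± 63.8 CPM in females (n = 8 each; log2 fold change 0.43, or 0.29 without biosolids female 8775) and at 167 ± 51.1 against 195 ± 41.7 CPM in males (n = 7 each).

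In males the smallest p belonged to SLC2A5, the fructose transporter, and MLXIP, a glucose-sensing transcription factor. SLC2A5 ran from 1.77 through 3.24 to 18.9 CPM in biosolids males and from 6.43 through 17.1 to 25.7 CPM in control males, a log2 fold change of -1.51 ± 0.61 (SE, edgeR adjusted p = 0.816), which was -2.27 without biosolids male 8762. In females it stood at 5.93 ± 4.96 against 8.25 ± 4.15 CPM. MLXIP was at -0.36 ± 0.15 in males and -0.06 ± 0.14 in females. Over both sexes SLC2A5 and TXNIP, which restrains glucose uptake, came first, at -0.99 ± 0.41 and 0.29 ± 0.14 (edgeR adjusted p = 0.943). FBP2 and PFKFB4 led the interaction and the sex comparison in biosolids lambs, PFKFB4 at -0.94 ± 0.43 and -0.62 ± 0.31. FBP2 stood at -2.49 ± 0.97 and -1.89 ± 0.70 there, and at -1.22 and -0.64 without biosolids female 8649. For sex in controls SLC2A10 and FOXO1, an insulin-restrained transcription factor, came first, at 0.69 ± 0.24 and 0.49 ± 0.17 (both with an edgeR adjusted p of 0.213). FOXO1 stood at 70.7 ± 12 CPM in control males and 50.4 ± 11.0 CPM in control females.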

How the data were processed

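Whole-number gene counts were used as the authors deposited them, in 1 table with a column for each of 30 lambs. The submitters' processing notes name STAR, featureCounts 1.5.0-p3, Trimmomatic, FastQC and MultiQC, without saying what each did. The library kit was TruSeq, per the labels' protocols, and the use of strand in counting is not stated. Exon length, used for CPM per kilobase, is the table's own. 7 genes broken over 25 lines were joined, and 0 columns had no lamb. Starts and ends of all 28855 genes compared equal those of RefSeq assembly ARS-UI_Ramb_v3.0.

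In R 4.3.3, edgeR 4.0.16 kept 17840 genes by filterByExpr, scaled libraries by TMM and fitted 1 robust quasi-likelihood model with 4 group means (26 residual degrees of freedom, which also set the 95% intervals). Calls were made at an adjusted p under 0.05 over all genes. Each sample carries its own lamb's tag and lambs were taken as independent. No batch is labelled, so none was examined. Correlations used a prior count of 2 and 100000 permutations with scipy 1.17.1, and isozyme shares exact permutation. Alternatives were RLE scaling, DESeq2 1.42.0, limma 3.58.1 voom, other filters, removal of 25 ribosomal RNA rows, an adjusted p of 0.1 and leaving out each lamb. The fit was also run on simulated data with known changes, and how well it finds small changes is not given here.

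Members and lists were chosen with earlier results of these data known. Members named are those with the 3 smallest p in each direction of each contrast, and of the further genes the 2 smallest. PFKM, PPP1R3B, GYS2, HK3 and other extremes of level or spread were chosen after their values were seen. Some further genes are not reported here by name.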

Additional observations from a re-analysis of the deposited data

Results flagged for a closer look

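In 10 of 140 sets of 1 gene in 1 group, a lamb lay far from the rest of its group on the log2 scale (chance gives this in about 5% of sets). Control female 8263 held 33.2 CPM of HK3, where the other control females lay between 7.38 and 13.0 CPM. Biosolids female 8775 held 322 CPM of GYS2, above 93.6 to 156 CPM in the others. Control male 8408 was high for GAPDH, at 563 CPM beside 347 to 422, and low for PYGL, at 298 CPM beside 390 to 456. Control male 8364 was low for PFKL and PFKFB3, at 35.5 CPM beside 49.6 to 63.8 and 13.4 CPM beside 23.8 to 29.0. Control male 8394 was low for PFKFB1, at 10.2 CPM beside 14.5 to 17.6. PFKP was low in biosolids female 8714, at 5.08 CPM beside 7.17 to 9.68, and high in biosolids male 8778, at 16.3 CPM beside 6.33 to 8.84. ALDOC had 0 CPM in biosolids male 8778, beside 0.203 to 0.688, but 0 counts allow up to 1.06 CPM at the depth of that library, so the low value was not detectable as such.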

How the results depend on the processing

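No paired analysis was possible because lambs carry their own tag numbers and groups share none. Of 1290 alternative values for 36 pairs of a named member and a contrast, 0 passed an adjusted p of 0.05 and 1 changed sign: PGK1 in females, 0.0103 without control female 8263. With 1 lamb left out it ranged from -0.30 to 0.0103. At an adjusted p of 0.05 members called stayed at 0 in every alternative. At 0.1 edgeR with all lambs also called 0 members. For sex in controls at 0.1, limma voom called 2 of 35 members (PYGL and PGD), beside 2333 of all 17840 genes. There edgeR without control female 8245 called 1 of 35 (PYGL), beside 682 of all 17820 genes. Over all genes DESeq2 called 4 in males, 4 over both sexes and 1 in the interaction, where edgeR called 0. For sex in controls the 15 calls became 3 with at least 1 CPM in 15 libraries, 53 by DESeq2 and 64 by limma voom, and 10 to 23 with 1 lamb left out (23 without control female 8245). For sex in exposed lambs the 17 calls became 7 with at least 1 CPM in 15 libraries and 12 to 21 with 1 lamb left out. The myeloid relation with PKM passed without biosolids male 8778 (r = 0.43, adjusted permutation p = 0.0482). No isozyme share passed under either alternative. Members under 1 CPM, such as ALDOC and GCKR, are limited by depth.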
